A study of Rattus norvegicus with 44 samples.

Results

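Glucocorticoid hormones reach the brain from the adrenal gland and act through 2 receptors of the same family, the glucocorticoid receptor and the mineralocorticoid receptor, both of which are made in the hippocampus. The hormone-bound receptors move to the nucleus and turn genes on or off, and the dentate gyrus (DG), the part of the hippocampus that receives the cortical input, is among the brain regions where both receptors are known to be abundant. An enzyme, 11-beta-hydroxysteroid dehydrogenase type 1, regenerates active hormone inside cells, and a few genes are widely used as readouts of receptor activity. The 6 genes described here were chosen by symbol. They are Nr3c1 (the glucocorticoid receptor), Nr3c2 (the mineralocorticoid receptor), Hsd11b1 (the regenerating enzyme), Fkbp5 (a co-chaperone that lowers the receptor's affinity for hormone), Sgk1 (a serum- and glucocorticoid-regulated kinase) and Tsc22d3 (GILZ, a leucine zipper protein). They are 6 of 18347 gene identifiers in the deposited table, and 6 of 6 were among the 15598 genes tested, the genes whose normalized value averaged at least 5.

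RNA was sequenced from the DG of 44 male F344 rats, 1 library per rat. Young rats (YNG, n = 10) were 6 months old, were not given either drug and received vehicle. The older rats, labelled as 12 months old, received by gavage vehicle (AV, n = 12), ABT-263 at 12 mg/kg (AA, n = 11) or dasatinib at 1.2 mg/kg with quercetin at 12 mg/kg (ADQ, n = 11). According to the methods of the study, treatment began at 12 months of age and ran in 8 cycles of 5 days over 6 months, and a final round after the behavioral tests came 2 weeks before the tissue was taken. ABT-263 blocks proteins of the BCL-2 family, dasatinib is a tyrosine kinase inhibitor and quercetin is a plant flavonoid, and both treatments are used as senolytics, agents that remove senescent cells. By the same methods, all rats were kept in a reverse light cycle and YNG rats were tested alongside the older rats, and no hormone level is part of the data analysed here.

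The normalized value is an estimated read count divided by the size factor of its library. The estimated depth ran from 10166556 to 24328321 reads per rat, and each of the 6 genes had between 256 and 3219 estimated reads in every rat. Of 10 listed markers of dentate granule cells, the 8 tested, such as Prox1, were present in every rat. The other markers, Tdo2 and Lct, averaged 0.66 and 1.47 with a lowest value of 0. The summed value of the 10 granule cell markers ranged from 5438 to 18850. Markers of CA1 pyramidal cells, a neighbouring region, were present in every rat too, with a summed value of 2091 to 45060. The CA1 sums spread unevenly, from 2091 to 45060 in AA and from 2736 to 11980 in ADQ. The granule cell sums ran from 5438 to 17780 in AA and from 13120 to 16920 in ADQ. The mean log2 value of 69 ribosomal protein genes had a median of 10.47 in YNG, 9.60 in AV, 9.61 in ADQ and 9.53 in AA, with rats from 9.07 to 10.75 in YNG and from 9.14 to 10.74 in AV. In bulk tissue, fewer cells that express a gene and less RNA of that gene per cell cannot be told apart.

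Sgk1 and Tsc22d3 were higher and Hsd11b1 was lower in older rats than in YNG. The levels of both receptor genes and of Fkbp5 did not pass the test against YNG in any older group. The change of Sgk1 was the largest of the 6 genes, at 1.65-fold over the 3 older groups together (95% interval 1.33 to 2.06), followed by Tsc22d3 at 1.38-fold (1.13 to 1.69), while Hsd11b1 stood at 0.759-fold (0.664 to 0.868). Thus 3 of the 6 genes passed an unadjusted p of 0.05 in older rats against YNG, where 32.4% of all genes tested passed, and the same 3 had an adjusted p under 0.05, as did 14.9% of all genes. Between AA and AV and between ADQ and AV 0 of the 6 genes passed this threshold with limma, where 4.51% and 9.32% of all genes passed.

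**Figure D1:**
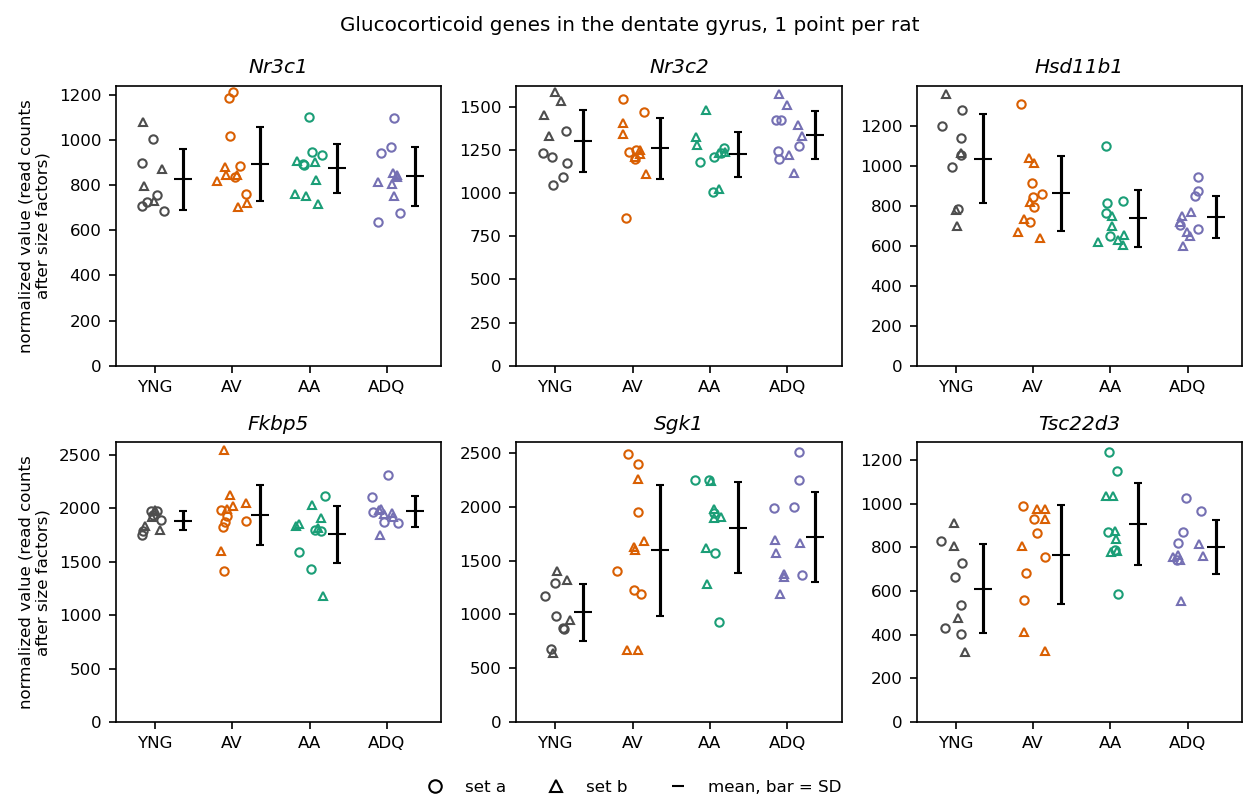
Normalized value of the 6 genes in each of the 44 rats (vertical axis, from 0) by group (horizontal axis), with the mean and SD beside the points. Circles and triangles mark 2 sets of rats by rat number; most older rats lie above the YNG rats for Sgk1 and below the YNG median for Hsd11b1, while Fkbp5 of YNG fills a narrow band.

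The promoters of genes that moved together are shown first, since Sgk1 and Tsc22d3 rose in the same comparison and varied together among rats. RefSeq (build GRCr8) lists start sites for 4 of the 6 genes by symbol, with 3 for Sgk1, 3 for Tsc22d3, 2 for Nr3c1 and 1 for Fkbp5. The 250 bases before each start were searched on both strands for the full glucocorticoid response element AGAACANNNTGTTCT, its half-site TGTTCT, the cyclic AMP response element TGACGTCA and the TATA box TATAAA. None of the 9 windows held the first 3 of these, and 3 windows held TATAAA, in capitals below, which 12.9% of all 33469 promoter windows hold. The half-site, which is contained in the full element, was in 17.5% of all windows, the full element in 0.012% and TGACGTCA in 1.59%.
Sgk1, first start, chr1:24807232-24807481, minus strand: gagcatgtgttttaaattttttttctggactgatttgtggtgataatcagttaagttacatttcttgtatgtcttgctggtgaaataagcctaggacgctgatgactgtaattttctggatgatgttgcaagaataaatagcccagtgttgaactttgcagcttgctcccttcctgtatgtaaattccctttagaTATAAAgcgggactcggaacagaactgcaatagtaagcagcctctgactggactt
Sgk1, last start, chr1:24804832-24805081, minus strand: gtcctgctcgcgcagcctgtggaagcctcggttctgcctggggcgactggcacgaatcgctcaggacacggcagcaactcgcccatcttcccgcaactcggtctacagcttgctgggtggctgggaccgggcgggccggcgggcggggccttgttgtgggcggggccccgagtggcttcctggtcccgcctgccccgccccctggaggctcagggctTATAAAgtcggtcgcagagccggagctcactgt
Tsc22d3, last start, chrX:109010035-109010284, minus strand: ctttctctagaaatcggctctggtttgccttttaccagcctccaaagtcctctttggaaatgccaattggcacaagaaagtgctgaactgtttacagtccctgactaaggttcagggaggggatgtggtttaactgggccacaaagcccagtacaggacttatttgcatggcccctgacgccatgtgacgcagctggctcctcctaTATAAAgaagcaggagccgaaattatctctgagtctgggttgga
The box begins 55 and 33 bases before the start in the Sgk1 windows and 44 bases before it in the Tsc22d3 window. These windows differ in base composition, with 39.2% and 69.6% G and C for Sgk1 and 49.2% for Tsc22d3, against a median of 51.2% over all windows. The Fkbp5 window held 76.0% G and C and those of Nr3c1 64.0% and 78.4%, with none of the searched letters. A match is a description of these letters only, and elements further from the start were not searched.

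Of the receptors, Nr3c1 (ENSRNOG00000014096) had a lowest, median and highest value of 684, 776 and 1081 in YNG, 705, 846 and 1210 in AV, 636, 836 and 1096 in ADQ and 716, 893 and 1100 in AA. The groups overlapped over nearly the whole range, and 25 of 34 older rats lay above the YNG median. The group means were 826 ± 135 (SD, n = 10) in YNG, 893 ± 165 (n = 12) in AV, 838 ± 131 (n = 11) in ADQ and 875 ± 109 (n = 11) in AA. The log2 difference of older rats from YNG was 0.07 ± 0.08 (SE), with a 95% interval of -0.09 to 0.23, and no neighbours in the order YNG, ADQ, AA, AV differed beyond their spread.

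Nr3c2 (ENSRNOG00000034007) had a lowest, median and highest value of 1045, 1283 and 1584 in YNG, 854, 1243 and 1545 in AV, 1116, 1332 and 1575 in ADQ and 1005, 1234 and 1480 in AA. No older rat lay above the highest YNG rat and 3 of 34 lay below the lowest. The means ran from 1225 ± 131 in AA to 1337 ± 141 in ADQ, with YNG at 1302 ± 182 and AV at 1259 ± 178. The difference of older rats from YNG on the log2 scale was -0.03 ± 0.07, with an interval of -0.17 to 0.11. The largest contrast of Nr3c2 among the older groups, AA against ADQ, was -0.13 (interval -0.29 to 0.03) and did not pass the test.

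The log2 ratio of the Nr3c2 value to the Nr3c1 value, which is not corrected for transcript length and is given as a description, averaged 0.66 ± 0.26 in YNG, 0.50 ± 0.39 in AV, 0.68 ± 0.22 in ADQ and 0.49 ± 0.26 in AA. The lowest rat, at -0.50, was an AV rat, and the highest, at 1.12, a YNG rat. The SDs within groups were larger than the distances between the group means.

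The receptor values were also compared between 2 sets of rats. Set a holds YNG rats up to V6 and older rats up to 4011 (6 YNG, 6 AV, 5 AA and 5 ADQ rats), and set b the rest (4, 6, 6 and 6). The older rats' numbers have other gaps too, and a difference of the sets in 1 transcript was known from earlier results. The share of all values taken by the gene AABR07000398.1 was 0.422% to 1.6% in set a and 1.71% to 11.1% in set b, a description and not support for the split. The labels do not say what the numbers stand for. In set b the AV rats were numbered 4566 to 4572 and the AA and ADQ rats 4031 to 4110. Within set b, the contrast of AV with AA or ADQ therefore cannot be told apart from the range of numbers. The AA and ADQ rats of set b share a range. Within set a, Nr3c1 averaged 797 in YNG and 983 in AV, and within set b 870 and 802. Nr3c2 averaged 1186 in YNG of set a and 1476 in YNG of set b, while AV stood at 1259 and 1258. The Nr3c1 difference of AV from YNG was therefore 0.30 in set a (unadjusted p = 0.0489 with limma) and opposite in sign in set b, and the Nr3c2 difference of older rats from YNG was -0.20 in set b (p = 0.0399, limma). The test of the difference between sets gave p = 0.0313 (adjusted p = 0.182) for Nr3c1 in AV against YNG, and for older rats against YNG p = 0.0462 (adjusted p = 0.238) for Nr3c1 and p = 0.0495 (adjusted p = 0.245) for Nr3c2. Of the 15598 genes, 3406 passed the same test at the unadjusted threshold in AV and 3161 in older rats.

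Hsd11b1 (ENSRNOG00000005861) was lower in older rats. Its lowest, median and highest values were 699, 1059 and 1360 in YNG, 636, 832 and 1310 in AV, 596, 716 and 941 in ADQ and 603, 700 and 1098 in AA. Of the 34 older rats, 32 lay below the YNG median and 11 below the lowest YNG rat (2 AV, 5 AA and 4 ADQ rats), and no older rat exceeded the highest YNG rat. The means were 1035 ± 223 in YNG, 862 ± 188 in AV, 745 ± 104 in ADQ and 736 ± 143 in AA. The log2 difference from YNG was -0.40 ± 0.10 for older rats together (unadjusted p = 0.000143, adjusted p = 0.00872, limma), -0.48 ± 0.12 for AA (p = 0.000154, adjusted p = 0.0256) and -0.45 ± 0.12 for ADQ (p = 0.000314, adjusted p = 0.0216).

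For AV alone the difference of Hsd11b1 from YNG was -0.26 ± 0.11 (p = 0.0277, adjusted p = 0.181, limma). It did not pass in a permutation test (p = 0.0647) or in a fit of AV and YNG alone (p = 0.0517). Without YNG rat V1, V2 or V12, or without AV rat 4566 or 4569, it stood between -0.23 and -0.21 and did not pass either. With array weights it was -0.47 (p = 1.31e-05, limma), and with the score of endothelial markers -0.43 (p = 0.00241, adjusted p = 0.341). Of all 15598 genes, 7694 passed in AV against YNG with array weights, where 3326 did without them. AA and ADQ were lower than AV by similar amounts, with -0.22 (interval -0.44 to 0.003, p = 0.0529) and -0.19 (interval -0.42 to 0.03, p = 0.0868, limma), neither past the threshold. Upper quartile scaling brought the AA difference from AV to p = 0.0403 at the same size, -0.22.

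Hsd11b1 moved with the ribosomal protein genes. When their mean log2 value was in the fit, 1428 of all 15598 genes passed in older rats, where 5058 passed without it. The ribosomal protein genes had a median of that value of 10.47 in YNG, 9.60 in AV, 9.61 in ADQ and 9.53 in AA. With their mean log2 value in the fit, the difference of older rats from YNG was -0.16 (p = 0.0582, limma), that of AV from YNG was -0.07 (p = 0.423), and that of ADQ was -0.19 (p = 0.0625), while that of AA was -0.22 and passed at the unadjusted threshold (p = 0.0304, adjusted p = 0.67). The 2 genes most like Hsd11b1 over the 44 rats, after subtraction of group means, were P4hb (Pearson r = 0.90), a disulfide isomerase of the endoplasmic reticulum where Hsd11b1 also resides, and LOC100911372 (r = 0.87), followed by the ribosomal protein gene Rpl27a (r = 0.87). These are descriptions over 13703 genes with a mean of at least 20. P4hb had 2149 in YNG and 2155 in AV and did not differ between them (log2 difference 0.00).

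Of the target genes, Fkbp5 (ENSRNOG00000022523) had a lowest, median and highest value of 1752, 1906 and 1988 in YNG, 1411, 1954 and 2552 in AV, 1753, 1961 and 2311 in ADQ and 1178, 1821 and 2118 in AA. YNG rats were close to each other, with an SD of 86.7, and 11 older rats lay above and 5 below the whole YNG range. The spread was wider in AV (SD 278) and AA (SD 268) than in ADQ (SD 144), a description that was not tested. The means of 1886 in YNG, 1937 in AV, 1972 in ADQ and 1760 in AA gave a log2 difference of older rats from YNG of -0.01 ± 0.06, with an interval of -0.14 to 0.12.

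Fkbp5 was the 1 gene of the 6 that passed between treated groups, where 4.53% of all genes passed. It was lower in AA than in ADQ by -0.18 ± 0.08 on the log2 scale (unadjusted p = 0.0243, adjusted p = 0.981, limma). This difference did not pass within set a (-0.22, p = 0.0526) or set b (-0.14, p = 0.211), nor without AA rat 4107, the lowest of all at 1178 (-0.12), AA rat 3996 or ADQ rat 3994. Against AV, AA stood at -0.14 (interval -0.29 to 0.01, p = 0.0638) and ADQ at 0.04 (interval -0.11 to 0.19, p = 0.633). The AA difference from AV passed at the unadjusted threshold with the score of endothelial markers in the fit (-0.20, p = 0.00914, adjusted p = 0.999, limma). It also passed there with that of oligodendrocyte markers (-0.18, p = 0.00685, adjusted p = 0.995, limma). Both scores were chosen after seeing the data, and with the endothelial score 400 of all 15598 genes passed in this comparison. Over rats, Fkbp5 was most like RT1-M6-2 (r = 0.85), Scg2 (r = 0.85), which encodes a secretogranin of neuronal vesicles, and Arg1 (r = 0.84), an arginase.

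Sgk1 (ENSRNOG00000011815) rose most. Its lowest, median and highest values were 642, 968 and 1403 in YNG, 665, 1613 and 2497 in AV, 1186, 1661 and 2508 in ADQ and 930, 1903 and 2255 in AA. In all, 24 of 34 older rats lay above the highest YNG rat (8 of 12 AV, 9 of 11 AA and 7 of 11 ADQ), 31 of 34 lay above the YNG median, and none lay below the YNG range. The means were 1018 ± 266 in YNG, 1598 ± 611 in AV, 1723 ± 418 in ADQ and 1807 ± 423 in AA. On the log2 scale, older rats differed from YNG by 0.73 ± 0.16 (unadjusted p = 3.56e-05, adjusted p = 0.00534, limma). The 3 older groups each passed at the unadjusted threshold, where 21.3% of all genes tested passed in AV, 28.1% in ADQ and 26.6% in AA. Of the genes that passed in AV against YNG, 49.6% were higher, and 61.0% were higher under upper quartile scaling.

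The Sgk1 difference from YNG was 0.58 ± 0.19 in AV (p = 0.00353, adjusted p = 0.0845), 0.77 ± 0.19 in ADQ (p = 0.000235, adjusted p = 0.0198, all limma) and 0.83 ± 0.19 in AA (p = 8.51e-05, adjusted p = 0.0233). The 3 older groups share the YNG rats as controls. Between older groups, AA exceeded AV by 0.25 (interval -0.12 to 0.62) and ADQ exceeded AV by 0.19 (interval -0.18 to 0.56), and neither passed (p = 0.181 and 0.312, limma). In the order YNG, AV, ADQ, AA, the step from YNG to AV passed the test and the steps among the older groups did not.

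Markers of endothelial cells rose in AV too, 8 of 8 tested against YNG, with a summed value of 1399 to 4524 in YNG and 2444 to 10200 in AV. With their score in the fit the Sgk1 difference of AV from YNG was 0.31 (p = 0.161, limma), and with the ribosomal protein score it was 0.32 (p = 0.062). Within set b the AV difference was 0.31 (p = 0.279) and the ADQ difference 0.50 (p = 0.0877). For older rats together Sgk1 passed at the unadjusted threshold with each of these scores and in both sets. The adjusted p from limma was 0.361 with the ribosomal protein score (0.39, p = 0.0129), 0.0582 with the endothelial score (0.56, p = 0.00204) and 0.54 within set b (0.54, p = 0.036).

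Sgk1 is the 1 gene of the 6 that the table divides into several rows, 4 in all, which carry 1 gene identifier and stand for transcript forms the file does not name. The first row held 75.1% of the gene's value and the second 18.4% on average over 44 rats. The first row went from 773 ± 195 in YNG to 1208 ± 537 in AV, 1301 ± 335 in ADQ and 1353 ± 391 in AA, and the second from 184 ± 61.7 to 273 ± 114 in AV, 338 ± 78.2 in ADQ and 311 ± 66.9 in AA. Both rows rose in older rats, by 0.69 ± 0.17 (p = 0.000222) and 0.74 ± 0.17 (p = 6.61e-05) on the log2 scale (limma, fitted over all rows). The second row was also higher in ADQ than in AV, by 0.40 ± 0.19 (unadjusted p = 0.0468, adjusted p = 0.528, limma), while the first was not (0.21 ± 0.20). The remaining rows, with means of 38.6 and 22.6 in YNG, moved by 1.22 ± 0.60 (p = 0.047) and 0.67 ± 0.40 (p = 0.104). The mean share of the gene held by the first row lay between 74.2% in AA and 76.2% in YNG.

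Tsc22d3 (ENSRNOG00000056135), which in immune cells mediates part of the anti-inflammatory action of glucocorticoids, had a lowest, median and highest value of 320, 600 and 910 in YNG, 325, 834 and 987 in AV, 555, 763 and 1026 in ADQ and 585, 871 and 1235 in AA. The groups overlapped more than for Sgk1, with 29 of 34 older rats above the YNG median and 11 above the highest YNG rat. The means were 610 ± 205 in YNG, 766 ± 228 in AV, 801 ± 125 in ADQ and 907 ± 189 in AA. The log2 difference from YNG was 0.47 ± 0.14 for older rats together (p = 0.002, adjusted p = 0.0269), 0.62 ± 0.17 for AA (p = 0.000839, adjusted p = 0.0406), 0.45 ± 0.17 for ADQ (p = 0.012, adjusted p = 0.0845) and 0.33 ± 0.17 for AV (p = 0.0581, adjusted p = 0.252, all limma).

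Against AV, Tsc22d3 in AA stood at 0.29 (interval -0.04 to 0.62, p = 0.0868) and in ADQ at 0.12 (interval -0.21 to 0.46, p = 0.459). Without AA rat 3985, which had the lowest value of its group, the AA difference was 0.35 and passed. The AV difference from YNG passed under upper quartile scaling (0.36, p = 0.044), with the set of rats in the fit (0.34, p = 0.0493), within set a (0.43, p = 0.031), with array weights (0.62, p = 2.67e-05), and without any 1 of 7 rats (YNG V5, V6, V10 or V11, AV 3999, 4567 or 4572), of which 4567 gave the largest value, 0.44. Array weights let 7694 of all 15598 genes pass in AV against YNG, where 3326 did without them. Within set b the Tsc22d3 difference of older rats from YNG was 0.39 (p = 0.125), and that of ADQ was 0.33 (p = 0.261, limma).

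Tsc22d3 moved with the ribosomal protein genes as Hsd11b1 did, in the opposite direction. With their score in the fit, the difference from YNG was 0.07 (p = 0.529, limma) for older rats together. It was 0.18 (p = 0.172) for AA and 0.01 (p = 0.954) for ADQ (limma). The median score was 10.47 in YNG and 9.53 to 9.61 in the older groups. In that fit 1428 of 15598 genes passed in older rats, 1066 in AA and 1106 in ADQ, where 5058, 4153 and 4386 did without. The genes most like Tsc22d3 over rats were L3mbtl2 (r = 0.89), Foxj2 (r = 0.88), both regulators of transcription, and Adamts10 (r = 0.87), a secreted protease of the extracellular matrix. Foxj2 rose in older rats by 0.57 (p = 0.000244, adjusted p = 0.0103, limma).

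**Figure D2:**
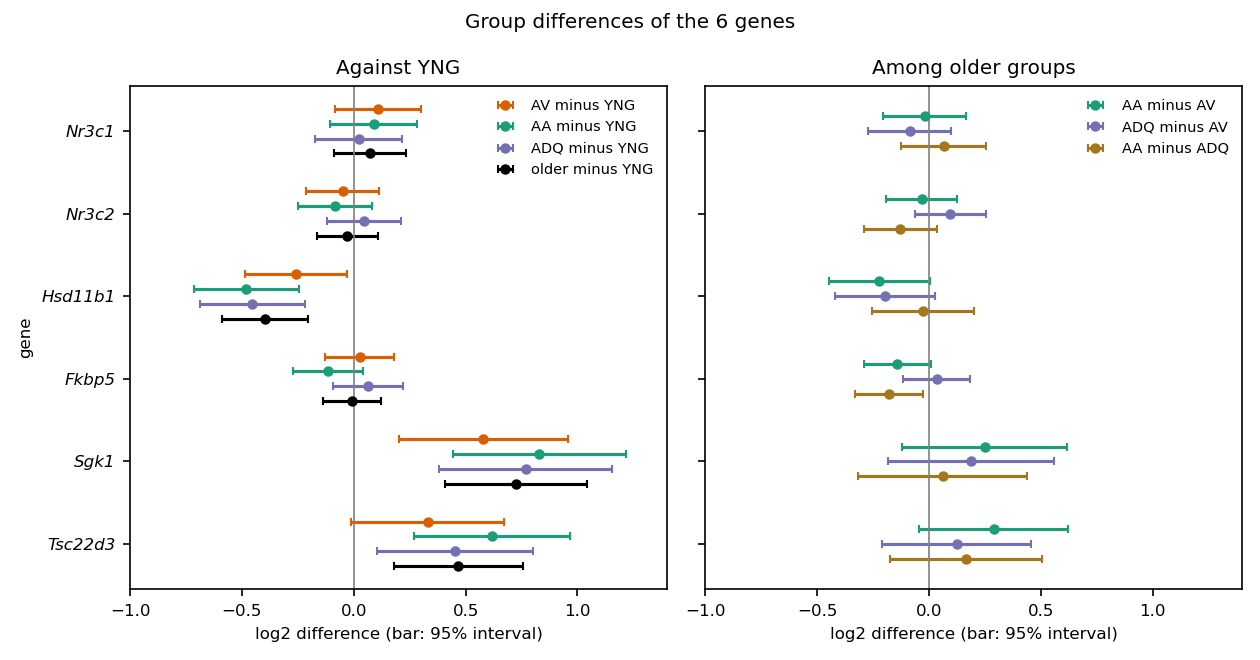
Log2 difference of each gene between groups, with 95% intervals from limma. The left panel sets the 3 older groups and all older rats against YNG, where Sgk1 lies to the right of 0 in every contrast and Hsd11b1 to the left; in the right panel, among older groups, the intervals of all genes reach 0 except that of Fkbp5 for AA minus ADQ (-0.18).

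Sgk1 and Tsc22d3 varied together from rat to rat. After subtraction of group means, Pearson's r over 44 rats was 0.81 (permutation p = 1e-05, the smallest that 100000 resamples can give, adjusted p = 0.00015 over 15 pairs) and Spearman's rho 0.75 (permutation p = 1e-05). Without the 2 rats farthest from the median of Sgk1, r was 0.73, and it was 0.63 in set a and 0.92 in set b. It was 0.92 in YNG, 0.83 in AV, 0.82 in ADQ and 0.72 in AA, and 0.70 after the ribosomal protein score was removed from both. Among the 13703 genes compared, Tsc22d3 was the second most like Sgk1, after Letm2 (r = 0.81) and before Nrbp2 (r = 0.80), a pseudokinase gene. AV rats 4567 and 4572 were the lowest of their group for both genes, with Sgk1 at 669 and 665 and Tsc22d3 at 325 and 411, and YNG rats V9 and V1 were the lowest of theirs.

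Among the other 14 pairs, 2 passed after adjustment by Pearson's r. Hsd11b1 was inversely related to Nr3c2 (r = -0.46, permutation p = 0.00383, adjusted p = 0.0287, rho = -0.44, adjusted p = 0.0264) and to Tsc22d3 (r = -0.44, permutation p = 0.00855, adjusted p = 0.0427, rho = -0.35, adjusted p = 0.133). Without the 2 farthest rats the first was -0.30 and the second -0.43. The relation with Nr3c2 was -0.60 in set a and -0.18 in set b, and that with Tsc22d3 was -0.36 and -0.72. With the ribosomal protein score removed from both genes, r was -0.30 for Nr3c2 and 0.19 for Tsc22d3, and within ADQ the relation with Tsc22d3 was 0.47. Nr3c1 and Fkbp5 were inversely related by rank (rho = -0.50, permutation p = 0.00064, adjusted p = 0.0048), while r was -0.31 (permutation p = 0.0413, adjusted p = 0.124) and -0.27 with that score removed. Fkbp5 was not related to Sgk1 in the same way in every group, with r = -0.78 in AV and 0.39 in ADQ, and over all rats r was -0.39 (permutation p = 0.0189, adjusted p = 0.0707). For Nr3c1 and Nr3c2 r was -0.04 (permutation p = 0.828).

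**Figure D3:**
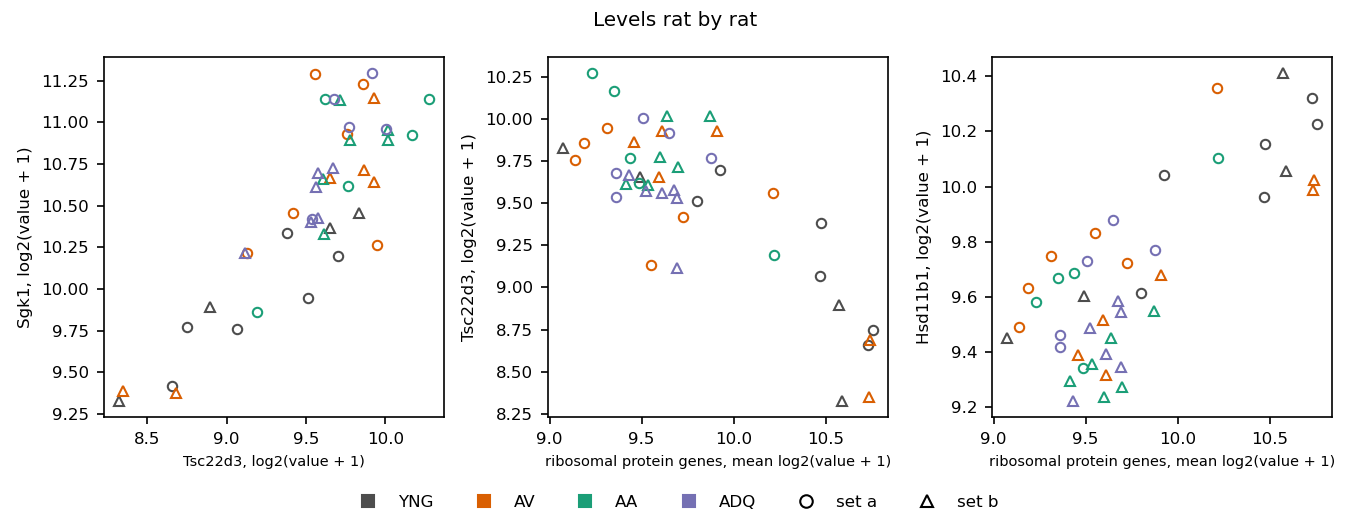
Levels of 1 gene against another, or against the mean of 69 ribosomal protein genes, in 44 rats on the log2 scale, coloured by group, with circles for set a and triangles for set b. Sgk1 rises with Tsc22d3 (r = 0.81 after group means were subtracted), and against the ribosomal protein genes Tsc22d3 falls and Hsd11b1 rises.

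Over the 44 rats, the genes with a pattern most like that of Nr3c1 were Aqp4 (r = 0.85), the water channel of astrocyte end-feet, Pank3 (r = 0.82) and Slc15a2 (r = 0.81), a peptide transporter. For Nr3c2 they were Trpc5 (r = 0.82), a cation channel of neurons, Mef2a (r = 0.80), a neuronal transcription factor, and Megf9 (r = 0.79). None of these 6 genes passed the test in older rats against YNG.

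Other genes that glucocorticoids are known to induce did not move in a single direction. Of 35 tested, 6 were higher and 7 lower in older rats than in YNG, 37.1% against 32.4% of all genes tested, and the median log2 difference of the list was 0.08 against 0.00 over all genes. Klf9, a zinc finger factor that is a direct target of the receptor, fell from 3175 in YNG to 2463 in AV, 2234 in ADQ and 2197 in AA, by 0.43 on the log2 scale over older rats (p = 0.000759, adjusted p = 0.0176, limma). Zbtb16, another zinc finger factor, fell by 0.40 (p = 0.00137, adjusted p = 0.0227), and Cdkn1c, an inhibitor of the cell cycle, fell by 0.61 (p = 0.00144, limma). Per1, a clock gene, was at 1141 ± 171 in YNG and 1175 ± 224 in AV and Ddit4, an inhibitor of mTOR signalling, at 1330 ± 209 and 1338 ± 230, and neither passed in older rats. In AV against YNG, 9 were higher and 3 lower, 34.3% against 21.3% of all genes, led by Map3k6 (0.93, p = 0.000999), Cdkn1a (0.85, p = 0.00116) and Txnip (0.46, p = 0.00479). With the ribosomal protein score in the fit, 4 were higher and 2 lower in older rats, where 1428 of all 15598 genes passed. In that fit Zbtb16 stood at -0.43 (p = 0.00215), Klf9 at -0.22 (p = 0.0719) and Cdkn1c at -0.17 (p = 0.287, all limma).

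Between treated and vehicle rats, most called genes of this list were lower in the treated rats. Of the 35, 1 was higher and 7 lower in AA than in AV, and 0 were higher and 10 lower in ADQ than in AV, where 3.1% and 5.9% of all genes tested were lower. No gene of the list had an adjusted p under 0.05 in either comparison, and with limma 0 of the 15598 genes did, while 703 and 1454 had an unadjusted p under 0.05. The metallothionein genes Mt2A and Mt1, which encode metal-binding proteins, were lower in both, by -0.81 and -0.76 in AA (p = 0.000576 and 0.00165) and by -0.78 and -0.75 in ADQ (p = 0.000921 and 0.00187, limma). These comparisons share the AV rats, and in set b the AV rats also differ from the treated rats in their range of rat numbers. With the ribosomal protein score in the fit, 0 were higher and 8 lower in AA, and 0 higher and 9 lower in ADQ. The share of all genes lower in that fit is not given here, so these counts cannot be weighed against it. Glul, the glutamine synthetase of astrocytes, was lower in AA by -0.27 (p = 0.00548), and Angptl4, an inhibitor of lipoprotein lipase, was lower in ADQ by -0.55 (p = 0.000528). Per1 was higher in AA than in AV by 0.22 (p = 0.0342).

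Against ADQ, 8 of the 35 genes were higher in AA and 0 lower, where 2.13% of all genes were higher. Per1 (0.30, p = 0.00617) and Ddit4 (0.24, p = 0.0386) were among them, with Dusp1 (0.79, p = 0.000721) and Crispld2 (0.48, p = 0.00172), which were chosen after their values were seen. Fkbp5 differed the other way in this comparison. Of 19 immediate early genes, whose transcription follows neuronal activity, 7 were higher in AA than in ADQ and 0 lower, and their summed value ranged from 11170 to 17340 in AA and from 9641 to 17750 in ADQ. With the score of these genes in the fit, Fkbp5 in AA against ADQ stood at -0.14 (p = 0.0876, limma), and with the score of CA1 markers at -0.14 (p = 0.0423, limma). The part of CA1 tissue in the other differences between AA and ADQ was not tested.

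**Figure D4:**
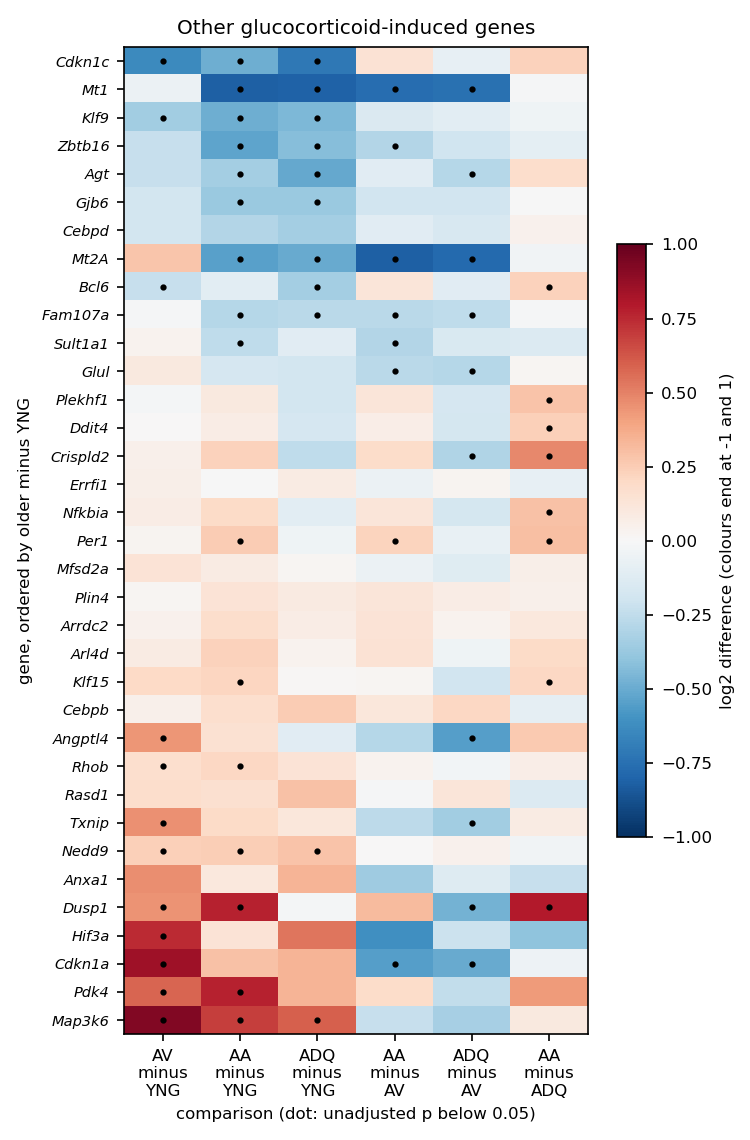
Log2 difference of 35 other glucocorticoid-induced genes in 6 comparisons, ordered by the difference of older rats from YNG, with a dot where the unadjusted p is below 0.05. Genes at the top, such as Klf9, are lower in older rats and genes at the bottom, such as Map3k6, higher, and Mt1 and Mt2A are lower in AA and ADQ than in AV.

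Genes around the receptor moved in both directions. Of 24 chaperones and coregulators tested, 4 were higher and 6 lower in older rats than in YNG, with a median log2 difference of -0.03. That is 41.7% of the list, where 32.4% of all genes passed, 15.7% higher and 16.7% lower. Smarca4, an ATPase of the SWI/SNF chromatin remodeler, fell from 5073 ± 512 in YNG to 4031 ± 697 in AV (-0.34 in older rats, p = 1.12e-05, adjusted p = 0.00362, limma), and Bag1, a partner of Hsp70, stood at -0.40 (p = 0.000116, adjusted p = 0.00796). Fkbp4, the relative of Fkbp5 that acts in the opposite way on the receptor, fell from 2711 ± 326 in YNG to 2187 ± 462 in AV, 2131 ± 305 in ADQ and 2262 ± 135 in AA (-0.31 in older rats, p = 9.01e-05, adjusted p = 0.00724). With the ribosomal protein score in the fit, 0 of the 24 were higher and 2 lower in older rats, where 1428 of all 15598 genes passed. In that fit Smarca4 stood at -0.22 (p = 0.00247) and Fkbp4 at -0.13 (p = 0.0398), while Bag1 at -0.14 did not pass (p = 0.065, all limma). In AA against AV 0 of the 24 passed, and in ADQ against AV 5 were higher, where 3.42% of all genes were, among them Dnaja1 (0.23, p = 0.00559), Hdac2 (0.25, p = 0.0092), Ppid (0.34, p = 0.0175) and the heat shock protein gene Hsp90ab1 (0.14, p = 0.0373), each with an adjusted p above 0.3.

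Of 10 tested genes that activate, inactivate or carry steroids, 3 were higher in older rats and 0 lower, 30% of the list against 32.4% of all genes passing and 15.7% higher. They were Abcc1, a transporter (0.39, p = 0.00638, adjusted p = 0.0462), Hsd3b7 (0.27, p = 0.013) and the 5-alpha-reductase gene Srd5a1 (0.19, p = 0.0277, limma). H6pd, which supplies the cofactor of Hsd11b1, was at 206 ± 34.8 in YNG, 229 ± 51.2 in AV, 236 ± 34.5 in ADQ and 252 ± 85.2 in AA, a difference of 0.20 in older rats that did not pass (p = 0.0783). Akr1c14, a 3-alpha-hydroxysteroid dehydrogenase, was lower in AA than in AV by -0.71 (p = 0.0346). With the ribosomal protein score in the fit, 0 of the 10 passed in older rats, where 1428 of all 15598 genes passed. The inactivating enzyme gene Hsd11b2 was below the mean of 5 and was not tested.

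Of 14 SGK kinases, regulators and substrates, 2 were higher and 2 lower in older rats, 28.6% against 32.4% of all genes. Ndrg1, whose product is phosphorylated by SGK1, stood at 1368 ± 196 in YNG, 1923 ± 635 in AV, 1475 ± 80.4 in ADQ and 1618 ± 284 in AA. It was higher in AV than in YNG by 0.45 (p = 0.000168, adjusted p = 0.0167) and lower in ADQ than in AV by -0.33 (p = 0.00348, adjusted p = 0.269, limma). Oligodendrocyte markers moved the same way, with 8 of 10 higher in AV than in YNG and 5 of 10 lower in ADQ than in AV, and Ndrg1 is known to be made in those cells. Their part in the Ndrg1 differences was not tested. Sgk3 was higher in AV by 0.41 (p = 0.015), Usp2 lower by -0.21 (p = 0.0122), and Mapkap1, a subunit of mTORC2, lower in older rats by -0.18 (p = 0.00211). Ndrg2, a relative of Ndrg1 found in astrocytes, was lower in AA (-0.24, p = 0.0464) and in ADQ (-0.25, p = 0.0353) than in AV.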

How the data were processed

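The authors deposited 1 table of signal values per transcript row and rat. Per the methods of the study, the authors aligned reads from poly(A)-selected libraries (Ion platform) to rn6 with STAR 2.5.3a in Partek Flow and scaled them by the median ratio of DESeq2. The annotation is not given in the sources used here. Low values were whole multiples of 1 step (within 0.05) for 79.2% to 84.2% of single-row genes per rat, so whole reads were not recovered and no count model was used. Depth was estimated as the sum of values over that step. Columns of per-sample values without a mapped rat numbered 0. The authors' table of rat attributes gave the group of each older rat, by rat name, since the labels give only age.

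Rows were summed per gene identifier. Genes with a mean of at least 5 were fitted as log2(value + 1) with limma 3.58.1 (R 4.3.3, empirical Bayes with a trend, two-sided, 4 groups in 1 fit), with an unadjusted threshold of 0.05 as in the study and Benjamini-Hochberg adjustment over all genes tested. Fold changes are on the log2(value + 1) scale. Older rats together are the mean of the 3 older group means. Whether rats of a group shared a litter is not given, so p-values measure the spread between these rats. The fit was tested on simulated data. Correlations used group-centred values with permutation of rats within groups (100000 resamples). Python 3.11.15 with numpy, pandas and matplotlib made the tables and figures. The deposited gene identifiers and symbols were used as given, and promoter windows came from RefSeq by symbol.

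The 6 genes, the lists and the rule for named genes were chosen with earlier results of these data known. Named were the 6 genes, the 3 smallest p of each list past the threshold in 4 comparisons (older rats against YNG, AV against YNG, AA against AV, ADQ against AV), 7 genes of interest (Per1, Klf9, Ddit4, H6pd, Hsd11b2, Fkbp4, Hsp90ab1), and the 3 genes most like each of the 6 genes. Alternatives were another pseudocount, filter, scaling, row choice, weighting, set of rats, permutation test and omission of each rat. The marker and ribosomal protein scores as covariates were chosen after seeing the data.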

Additional observations from a re-analysis of the deposited data

Results flagged for a closer look

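A limma interaction term asked whether a difference between groups was the same in the 2 sets of rats by rat number. Of 24 such contrasts of the 6 genes, 3 passed at the unadjusted threshold, all of a receptor gene against YNG, and none had an adjusted p under 0.05. For Nr3c1, the log2 difference of older rats from YNG was 0.22 in set a and -0.09 in set b. Set b minus set a was -0.31 (unadjusted p = 0.0462, adjusted p = 0.238, limma). The Nr3c1 difference of AV from YNG was 0.30 in set a and -0.11 in set b, and set b minus set a was -0.40 (p = 0.0313, adjusted p = 0.182, limma). For Nr3c2, the difference of older rats from YNG was 0.07 in set a and -0.20 in set b, and set b minus set a was -0.26 (p = 0.0495, adjusted p = 0.245, limma). Of all 15598 genes, 3161 passed this interaction test for older rats against YNG and 3406 for AV against YNG. What separates the sets was not tested. Within YNG, no value of the 6 genes stood far enough from the others to be singled out.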

How the results depend on the processing

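Of 42 differences (6 genes in 7 comparisons), 12 passed the threshold, and over 17 alternatives other than the omission of a rat, 671 of 708 values kept their side of the threshold, 20 lost it, 17 gained it and 0 called values changed sign; 49 values that passed in neither fit changed sign. The cause of each change was not tested, except that fits within a set hold fewer rats. Calls were lost for Hsd11b1 in AV against YNG in the fit of both groups alone (-0.26), within set a (-0.26) and set b (-0.23), with the ribosomal protein score (-0.073) and by permutation (-0.26), and for Hsd11b1 with that score in ADQ (-0.19) and older rats (-0.16) against YNG. Sgk1 in AV against YNG lost its call within set b (0.31), with the endothelial score (0.31) and with the ribosomal protein score (0.32), and Sgk1 in ADQ within set b (0.50). Tsc22d3 lost it within set b in ADQ (0.33) and older rats (0.39), and with the ribosomal protein score in AA (0.18), ADQ (0.0076) and older rats (0.070). Fkbp5 in AA against ADQ lost it within set a (-0.22) and set b (-0.14), with array weights (-0.11) and with the immediate early gene score (-0.14). Calls were gained by Tsc22d3 in AV against YNG under upper quartile scaling (0.36), with the set in the fit (0.34), within set a (0.43) and with array weights (0.62). Hsd11b1 in AA against AV gained a call under upper quartile scaling (-0.22), with the set in the fit (-0.21) and with the CA1 score (-0.23), and Fkbp5 under upper quartile scaling (-0.14) and with the endothelial (-0.20) and oligodendrocyte (-0.18) scores. Sgk1 in AA against AV gained one with the endothelial score (0.38), Fkbp5 in AV against YNG with the oligodendrocyte score (0.15), Nr3c1 in AV against YNG within set a (0.30), and Nr3c2 within set b in AV (-0.23), AA (-0.23) and older rats (-0.20) against YNG and with the ribosomal protein score in AA (-0.18).

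Of the 6 genes, 2 passed in AV against YNG, but 1 in the fit of both groups alone, within set b, with the endothelial score and by permutation, and 0 with the ribosomal protein score. In ADQ against YNG 3 passed, but 1 within set b or with the ribosomal protein score, and in older rats against YNG 3 passed, but 1 with that score. In AA against AV 0 passed, but 1 with the set in the fit or with the oligodendrocyte or CA1 score, and 2 under upper quartile scaling or with the endothelial score. In AA against ADQ 1 passed, but 0 within set a or b, with array weights or with the immediate early gene score.

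Of all genes, 3326 passed in AV against YNG, but 5224 within set a, 976 within set b, 7694 with array weights, 1231 with the endothelial score and 1834 with the ribosomal protein score. In AA against YNG 4153 passed, but 1924 within set b, 7068 with array weights, 2641 with the immediate early gene score and 1066 with the ribosomal protein score. In ADQ against YNG 4386 passed, but 1069 within set b, 8101 with array weights and 1106 with the ribosomal protein score, and in older rats 5058, but 1365, 8660 and 1428. In AA against AV 703 passed, but 400 with the endothelial score, in ADQ against AV 1454, but 894 within set a, 540 with the endothelial score and 886 with the oligodendrocyte score, and in AA against ADQ 707, but 1584 with array weights and 268 with the immediate early gene score.

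When each of 44 rats was left out in turn, Hsd11b1 ranged from -0.32 to -0.21 in AV against YNG, from -0.28 to -0.16 in AA against AV and from -0.23 to -0.14 in ADQ against AV. Tsc22d3 ranged from 0.24 to 0.44 in AV against YNG and from 0.18 to 0.35 in AA against AV, and Fkbp5 from -0.18 to -0.086 in AA against AV and from -0.21 to -0.12 in AA against ADQ. These 7 differences crossed the threshold in at least 1 such fit, and the counts of the 6 genes ranged from 1 to 3 in AV against YNG, 0 to 3 in AA against AV, 0 to 1 in ADQ against AV and 0 to 1 in AA against ADQ. All genes past the threshold ranged from 455 (without AV rat 3989) to 1055 (without AA rat 3985) in AA against AV and from 470 (without AA rat 4107) to 1070 (without ADQ rat 4004) in AA against ADQ. For Hsd11b1 in AA against AV the call was gained without YNG rat V10, V11 or V12, AV rat 4011, 4566, 4568 or 4569, or AA rat 3983, 3984 or 3985, for Hsd11b1 in ADQ against AV without AV rat 4569 or ADQ rat 4005, and for Fkbp5 in AA against AV without AV rat 4009 or 4571 or AA rat 3985, 4035 or 4069. No paired analysis was possible because the rats of different groups share no replicate numbers.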

Other observations

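Of 9 tested receptors and ligands of the stress axis, 2 passed in older rats against YNG, 22.2% against 32.4% of all genes. Crhbp, which binds corticotropin-releasing hormone, was higher in older rats than in YNG by 0.41 (p = 0.0124, adjusted p = 0.0659, limma), and Adcyap1r1, the receptor of the peptide PACAP, was lower by -0.19 (p = 0.000717, adjusted p = 0.0171). Crhr1, the main receptor of that hormone, was higher in AA than in AV by 0.52 (p = 0.025), Avp was lower in ADQ than in AV (p = 0.0187) and Crh was higher by 0.37 (p = 0.0457), each with an adjusted p above 0.4. Of the 3 other steroid receptors tested (of 4 listed), 0 passed in older rats together. In ADQ against YNG 2 were higher, where 13.5% of all genes were higher, and none had an adjusted p under 0.05.

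Immediate early genes included 3 of 19 that were higher in older rats than in YNG, 15.8% where 15.7% of all genes were higher: Atf3 (0.92, p = 0.00113, adjusted p = 0.0211), Fosb (0.31, p = 0.00128, adjusted p = 0.0221) and Npas4 (0.65, p = 0.0133). In ADQ against AV, where 3.42% of all genes were higher and 5.9% lower, 0 of 19 were higher and 3 lower, Atf3 (-1.09, p = 0.000936), Ier2 (-0.52, p = 0.00791) and Junb (-0.34, p = 0.0289, limma). Over all genes tested, 32.4% passed in older rats and 21.3% in AV, each against YNG, while 4.51% of AA differences and 9.32% of ADQ differences from AV passed. Of 8 endothelial markers, 4 were lower in AA and 6 lower in ADQ than in AV. Of 9 microglial markers, 3 were higher in AV than in YNG and 6 lower in ADQ than in AV. Of 7 astrocyte markers, 2 were higher in AV than in YNG and 1 lower in ADQ than in AV, and of 8 granule cell markers 3 were lower in older rats than in YNG. In older rats against YNG, 0 of 7 CA1 markers, 0 of 4 choroid plexus markers and 0 of 4 red blood cell markers passed. In that comparison 2 of 7 CA3 markers and 1 of 6 meningeal markers were lower. Against AV, 4 of 4 red blood cell markers were lower in ADQ and 2 of 4 in AA, where 5.9% and 3.1% of all genes were lower. Of the choroid plexus markers, 2 of 4 were lower in ADQ than in AV and 0 of 4 in AA. Their part in the other differences from AV was not tested.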
